A study of Gallus gallus with 20 samples.

Results

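Genes of the interferon response were followed through the livers of 2 chicken breeds, Cornish, a meat breed, and Ogye, a Korean native breed, each sampled at 10 and at 5 weeks of age in a study of how the breeds come to differ in weight. The members are 37 genes listed by symbol, comprising both subunits of the type I interferon receptor, the transcription factors that act behind it, sensors of viral RNA, and genes that interferon induces. The deposited count table has a row for 32 of the 37, and all 32 passed the filter on low counts that left 10697 of 13956 named genes for testing. PARP14, SAMD9L, LGALS3BP, XAF1 and UBA7 had no row and are not analysed here. Each of the 4 groups, Cornish and Ogye at 10 weeks and Cornish and Ogye at 5 weeks, had 5 libraries of total RNA from liver depleted of ribosomal and globin RNA. Neither a treatment nor the sex of the birds is stated in the labels. Nor do they say that each library is a separate bird, so a p-value reflects the spread from library to library, which may be technical.

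Type I interferon is a secreted signal of virus-infected cells. It binds a receptor made of IFNAR1 and IFNAR2, whose kinases JAK1 and TYK2 phosphorylate STAT2, which enters the nucleus and takes part in switching on a set of antiviral genes. Type II interferon, IFNG, comes from T and NK lymphocytes and acts in part through IRF1. The chicken lacks the RNA sensor RIG-I and the factors IRF3 and IRF9 of mammals, and IRF7 takes the place of IRF3. Many interferon-induced genes are at low levels in resting liver, where hepatocytes and resident macrophages can both respond.

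Libraries held 14865637 to 31848768 counts, and levels are given as CPM, counts per 1e+06 scaled counts of named genes. CPM take no account of transcript length, so levels are compared between libraries and not between genes. The liver label was checked against 12 hepatocyte genes, all in the table, whose summed level was 264863 to 292316 CPM in Cornish and 276196 to 408902 CPM in Ogye at 10 weeks, and 145724 to 245440 CPM in Cornish and 216531 to 271574 CPM in Ogye at 5 weeks. 4 libraries of 5 weeks stood apart on measures other than the members. In replicates 3, 4 and 5 of Ogye at 5 weeks, the level of a gene relative to the median library went down with the span of the gene on the chromosome, with Spearman correlations across 10335 tested genes of -0.604, -0.610 and -0.603, against -0.153 to 0.360 in the other 17 libraries. In replicate 1 of Cornish at 5 weeks, the summed hepatocyte genes had the lowest value of the 20 libraries and 10 markers of T and NK lymphocytes the highest, at 274 CPM against 63.9 to 179 CPM elsewhere. Results are given with all 20 libraries and without these 4, which were chosen with earlier results of these data known. Replicates 3 and 5 of Ogye and replicate 1 of Cornish hold the highest levels of most members, and replicate 4 of Ogye that of 0. The values without the 4 are thus a description of the other 16 libraries and not an independent check. Those 16 include replicate 2 of Ogye at 10 weeks, which held the highest level of 15.3% and the lowest of 13.8% of all tested genes.

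The levels of the members were uneven between libraries of 1 group. Relative to the median of the 20 libraries, the median member stood 2.84 higher on the log2 scale in replicate 3 and 2.59 higher in replicate 5 of Ogye at 5 weeks, and 30 and 29 of the 32 members were at least 1 above, against 10.3% and 12.1% of all tested genes in these 2 libraries. Replicate 1 of Cornish at 5 weeks came next, with the median member at 1.55 and 27 members at least 1 above, against 5.86% of all tested genes. Replicate 4 of Ogye at 5 weeks had a median of 0.507 and 12 members at least 1 above, against 13.6% of all tested genes. The other 16 libraries had medians of -0.553 to 0.517, the highest being replicate 2 of Cornish at 5 weeks and replicate 1 of Ogye at 10 weeks at 0.438. Replicates 1 and 2 of Ogye at 5 weeks were at -0.196 and 0.0678, so the 5 libraries of this group spanned nearly the whole range of the series. Of the 32 members, 24 had their highest level in replicate 3 of Ogye at 5 weeks, 4 in replicate 5 of that group and 2 in replicate 1 of Cornish at 5 weeks, which hold the highest level of 7.30%, 9.66% and 9.57% of all tested genes. In these bulk libraries, more responding cells and more RNA of these genes in each cell cannot be told apart.

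**Figure D1:**
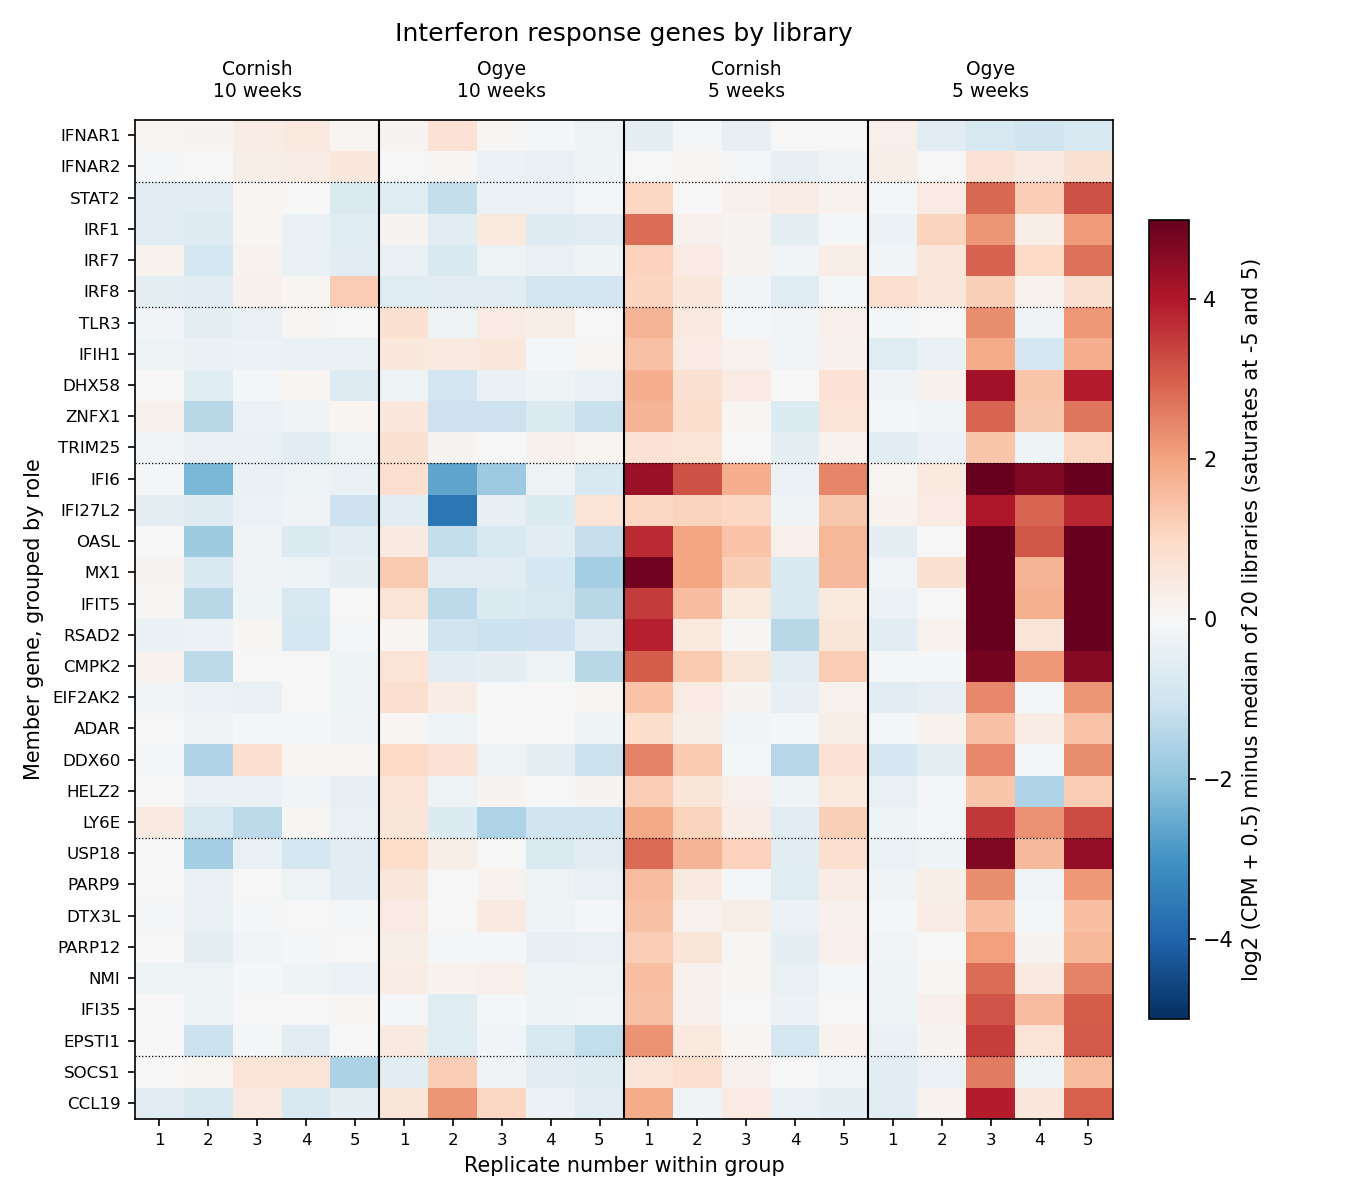
Level of the 32 members (rows, grouped by role) in the 20 libraries (columns, by group and replicate number), as log2 of CPM plus 0.5 minus the median over libraries, with the colour ending at -5 and 5. Replicates 3 and 5 of Ogye and replicate 1 of Cornish, all of 5 weeks, are above the median in most rows, mostly by less in the Cornish library. IFNAR1 at the top is pale and below the median in these libraries.

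Of the receptor genes, IFNAR1 was low and IFNAR2 high in replicates 3, 4 and 5 of Ogye at 5 weeks. IFNAR1 and IFNAR2, the subunits of the type I interferon receptor, are neighbours on chromosome 1 (105365332 to 105384094 and 105331890 to 105343947 in GRCg7b). At 10 weeks IFNAR1 was at 55.2, 56.9, 66.4, 72.7 and 55.4 CPM in replicates 1 to 5 of Cornish and 56.96, 83.9, 53.3, 49.5 and 42.3 CPM in those of Ogye. At 5 weeks it was at 35.9, 48.7, 38.4, 50.2 and 52.1 CPM in Cornish and 61.9, 35.7, 29.4, 25.4 and 29.6 CPM in Ogye. Replicates 3, 4 and 5 of Ogye at 5 weeks, 2 of which were high for nearly all other members, thus had the lowest IFNAR1 levels of the series, and the Cornish groups of the 2 ages did not overlap. For IFNAR2 the values at 10 weeks were 43.7, 45.9, 57.5, 60.4 and 66.3 CPM in Cornish and 45.3, 47.6, 37.3, 35.9 and 39.7 CPM in Ogye. At 5 weeks IFNAR2 was at 45.1, 50.1, 44.2, 34.7 and 40.4 CPM in Cornish and 59.1, 46.6, 76.7, 63.8 and 79.3 CPM in Ogye, where replicates 5 and 3 were the 2 highest of the series.

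No ligand was seen at a comparable level. The type I and III interferon genes IFNA3, IFNW1 and IFNL3A had 0 counts in all 20 libraries, which allows up to 3 counts in a library, and IFNK reached 0.104 CPM at most. IFNG, the type II interferon of T and NK cells, was at 0.845, 0.577, 0.814, 0.430 and 0.621 CPM in Cornish and 0.583, 0.671, 0.887, 0.303 and 0.272 CPM in Ogye at 10 weeks. At 5 weeks IFNG was at 2.48, 0.554, 0.537, 0.617 and 0.656 CPM in Cornish and 0.935, 0.347, 1.78, 0.859 and 1.78 CPM in Ogye. Its 3 highest values belonged to the 3 libraries in which most members were highest. Of the interferon genes of chicken only those with a row in the table could be read, and closely related copies share reads that the counting could split or drop.

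Among the transcription factors, STAT2, which carries the type I signal to the nucleus, was at 7.61, 7.57, 11.8, 10.9 and 6.52 CPM in Cornish and 7.16, 4.58, 8.87, 8.88 and 10.3 CPM in Ogye at 10 weeks. At 5 weeks it was at 23.5, 11.3, 13.03, 14.4 and 12.6 CPM in Cornish and 10.2, 14.9, 85.01, 26.6 and 106 CPM in Ogye. The values of replicates 3 and 5 of Ogye at 5 weeks were the 2 highest, and replicate 4 of that group and replicate 1 of Cornish at 5 weeks followed. IRF7, the factor that turns on type I interferon genes in the chicken, was at 13.5, 6.35, 13.8, 9.33 and 8.28 CPM in Cornish and 9.08, 6.93, 10.05, 9.08 and 10.2 CPM in Ogye at 10 weeks. The 5-week values of IRF7 were 27.5, 16.2, 13.2, 10.9 and 15.1 CPM in Cornish and 10.9, 17.8, 96.2, 24.2 and 83.96 CPM in Ogye, and every Ogye library of 10 weeks lay below every Ogye library of 5 weeks.

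IRF1, which answers mainly to type II interferon, had another order. At 10 weeks it was at 19.4, 18.7, 30.9, 22.9 and 19.05 CPM in Cornish and 32.4, 20.1, 41.4, 18.5 and 19.4 CPM in Ogye, and at 5 weeks at 206, 34.3, 32.4, 21.03 and 27.5 CPM in Cornish and 23.9, 64.2, 136, 36.8 and 129 CPM in Ogye. Its highest library was replicate 1 of Cornish at 5 weeks, above replicates 3 and 5 of Ogye at 5 weeks, an order otherwise seen among the 32 members in DDX60 only. IRF8, a factor of myeloid and B cells, ranged from 71.8 to 260.3 CPM in Cornish and from 55.2 to 75.4 CPM in Ogye at 10 weeks, and from 71.8 to 229 CPM in Cornish and from 121 to 246 CPM in Ogye at 5 weeks. All 5 Ogye libraries of 5 weeks were above all 5 of 10 weeks, and the highest value of the series was replicate 5 of Cornish at 10 weeks.

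Among the sensors of viral RNA, DHX58, the helicase LGP2, showed the widest range. It was at 6.30, 3.97, 5.89, 6.89 and 3.83 CPM in Cornish and 5.16, 3.02, 4.88, 5.45 and 4.90 CPM in Ogye at 10 weeks. At 5 weeks DHX58 was at 23.2, 11.2, 8.49, 6.35 and 10.7 CPM in Cornish and 5.46, 7.42, 126, 17.5 and 104 CPM in Ogye. All Ogye libraries of 10 weeks were below all of 5 weeks, although replicate 1 of 5 weeks, at 5.46 CPM, was next to replicate 4 of 10 weeks, at 5.45 CPM. IFIH1, the helicase MDA5 that detects long double-stranded RNA and lies on chromosome 7, moved less. Its 10-week values were 24.1, 23.1, 23.2, 22.9 and 23.1 CPM in Cornish and 42.3, 39.4, 41.7, 27.5 and 30.3 CPM in Ogye, groups that did not overlap. In 5-week livers IFIH1 was at 81.1, 38.6, 32.9, 26.4 and 33.9 CPM in Cornish and 18.6, 22.7, 105, 15.6 and 102 CPM in Ogye, with replicate 4 of Ogye the lowest library of all 20.

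TLR3, the receptor for double-stranded RNA in endosomes, was at 16.7, 13.4, 14.2, 19.3 and 18.01 CPM in Cornish and 31.9, 15.7, 24.5, 23.00 and 18.1 CPM in Ogye at 10 weeks. At 5 weeks it was at 60.3, 25.03, 17.04, 16.8 and 22.1 CPM in Cornish and 17.8, 18.7, 94.5, 16.4 and 83.4 CPM in Ogye, so the 3 high libraries stood out and the other 7 of that age lay within 16.4 to 25.0 CPM. TRIM25, a ubiquitin ligase of the sensor pathway, ranged from 63.1 to 83.7 CPM in Cornish and from 92.3 to 157 CPM in Ogye at 10 weeks, without overlap, and from 65.4 to 154 CPM in Cornish and from 63.9 to 240.1 CPM in Ogye at 5 weeks. Its row is less certain, since the annotated spans of TRIM25 and its neighbour DGKE share 9714 bases and the strand setting of the counting is not given in the sources used here. ZNFX1, a helicase that binds viral RNA at mitochondria, ranged from 21.4 to 65.1 CPM in Cornish and 25.8 to 81.3 CPM in Ogye at 10 weeks. At 5 weeks ZNFX1 was at 35.2 to 186 CPM in Cornish and 51.6 to 430.3 CPM in Ogye.

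The antiviral effectors differed in how far they ranged. IFI6 (chromosome 2, 89340072 to 89343487), a small hydrophobic protein and by log2 range the most variable member, was at 33.95, 6.92, 27.8, 29.2 and 27.95 CPM in Cornish and 63.7, 5.25, 9.60, 29.4 and 20.8 CPM in Ogye at 10 weeks. At 5 weeks it was at 717, 323, 127, 29.1 and 192 CPM in Cornish and 36.8, 49.1, 6722, 887 and 5891 CPM in Ogye. Replicates 3, 5 and 4 of Ogye at 5 weeks were the 3 highest of the series, and replicates 1 and 2 of that group lay inside the range of the 10-week libraries. Of the 5 Cornish libraries of 5 weeks, 4 were above every library of 10 weeks of either breed, the exception being replicate 4. IFI27L2, which RefSeq lists with the synonym ISG12-1 as it lists IFI6 with ISG12-2, was at 48.2, 42.6, 53.7, 59.6 and 32.5 CPM in Cornish and 45.1, 5.03, 50.4, 41.96 and 109 CPM in Ogye at 10 weeks. The 5-week levels of IFI27L2 were 138, 146, 137, 59.3 and 172 CPM in Cornish and 74.9, 90.1, 1107, 508 and 922 CPM in Ogye, and reads of these related genes may be split between them.

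OASL (chromosome 12, 3411598 to 3413627), which senses double-stranded RNA in the same way as the oligoadenylate synthetases, was at 19.8, 5.48, 17.8, 12.3 and 13.8 CPM in Cornish and 27.1, 8.39, 11.5, 13.4 and 8.71 CPM in Ogye at 10 weeks. At 5 weeks OASL was at 270.4, 79.3, 54.1, 24.02 and 64.2 CPM in Cornish and 14.03, 20.1, 2248, 177 and 2091 CPM in Ogye, and no Cornish library of 10 weeks reached any of 5 weeks. The annotated span of OASL shares 2030 bases, its whole length, with LOC101747452, which has no row, so reads of both may be counted as OASL. MX1, a GTPase that traps viral nucleocapsids in mammals, was at 8.53, 4.40, 6.89, 6.46 and 5.59 CPM in Cornish and 20.2, 5.03, 5.32, 4.03 and 2.09 CPM in Ogye at 10 weeks. Its 5-week values were 234, 32.1, 18.3, 4.32 and 24.9 CPM in Cornish and 7.09, 13.6, 325, 26.4 and 335 CPM in Ogye. In MX1, replicate 1 of Cornish came closer to replicates 3 and 5 of Ogye than in IFI6, OASL or RSAD2.

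IFIT5, the single IFIT gene of the chicken, which binds viral RNA ends, was at 42.7, 15.4, 34.9, 23.6 and 39.9 CPM in Cornish and 66.04, 16.1, 25.3, 23.2 and 15.4 CPM in Ogye at 10 weeks. At 5 weeks it was at 469, 122, 56.9, 24.02 and 57.3 CPM in Cornish and 33.2, 42.1, 2504, 140.4 and 2407 CPM in Ogye. RSAD2, the radical-SAM enzyme viperin, and CMPK2, a mitochondrial nucleotide kinase, are neighbours on chromosome 3 (94677178 to 94685018 and 94666168 to 94672677). RSAD2 was at 4.07, 4.18, 5.39, 2.58 and 5.07 CPM in Cornish and 5.66, 2.35, 2.22, 2.32 and 3.45 CPM in Ogye at 10 weeks. At 5 weeks RSAD2 was at 84.4, 7.46, 5.47, 1.68 and 8.10 CPM in Cornish and 3.45, 5.90, 618, 8.53 and 577 CPM in Ogye. Outside replicates 1 of Cornish and 3 and 5 of Ogye at 5 weeks, RSAD2 was at 8.53 CPM or less in every library, and the lowest count of any member, 21, was of this gene. CMPK2 was at 33.6, 11.4, 29.7, 28.8 and 25.5 CPM in Cornish and 47.1, 19.6, 21.2, 24.4 and 10.98 CPM in Ogye at 10 weeks. At 5 weeks CMPK2 was at 242, 73.7, 44.2, 19.7 and 71.02 CPM in Cornish and 28.4, 27.4, 815, 133 and 698 CPM in Ogye. Replicate 4 of Ogye at 5 weeks was raised more in CMPK2 than in its neighbour, standing 2.17 above the median library for CMPK2 and 0.66 for RSAD2 on the log2 scale.

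**Figure D2:**
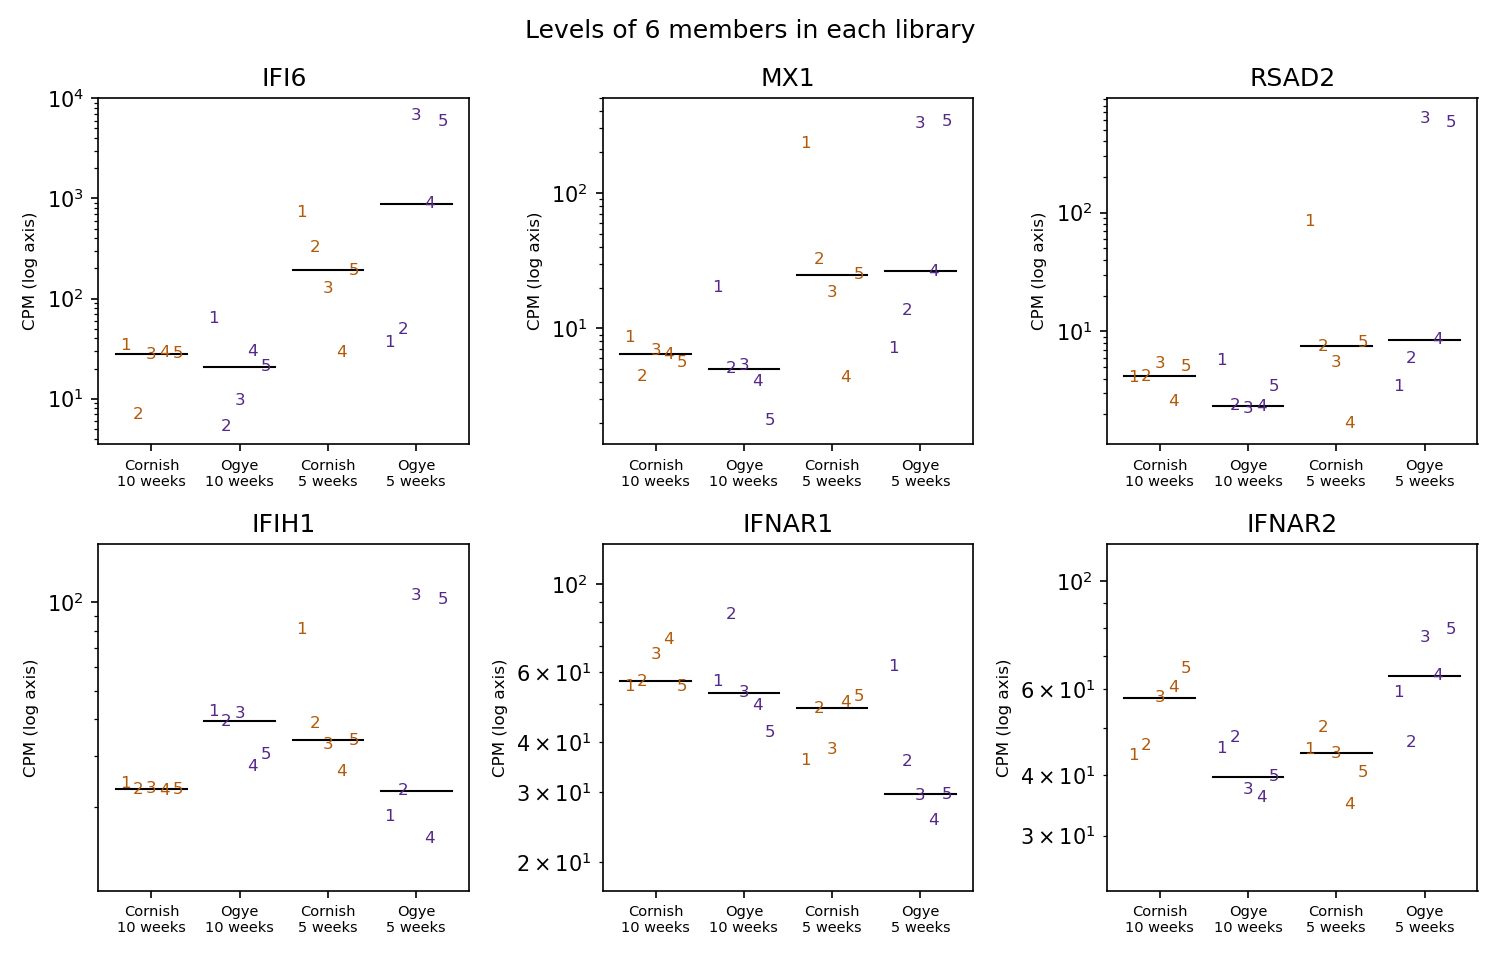
CPM (log axis) of IFI6, MX1, RSAD2, IFIH1, IFNAR1 and IFNAR2 in each library, drawn as its replicate number, with Cornish left of Ogye and 10 weeks left of 5 weeks; the bar is the group median. Replicates 3 and 5 of Ogye at 5 weeks are the 2 highest libraries for IFI6, MX1, RSAD2 and IFIH1, and among the lowest 3 for IFNAR1.

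LY6E, a membrane-anchored protein that restricts entry of some viruses, was at 744, 312, 220.4, 572 and 436 CPM in Cornish and 822, 339.6, 186, 269.7 and 269.8 CPM in Ogye at 10 weeks. At 5 weeks LY6E was at 2018, 1172, 706, 365 and 1239 CPM in Cornish and 469, 514, 6364, 2610.1 and 5211 CPM in Ogye, and replicates 3, 4 and 5 of Ogye were the 3 highest libraries. The kinase EIF2AK2 (PKR), which halts translation on double-stranded RNA, ranged from 20.3 to 26.3 CPM in Cornish and 25.8 to 45.2 CPM in Ogye at 10 weeks. At 5 weeks EIF2AK2 was at 19.4 to 70.3 CPM in Cornish and 17.96 to 139.8 CPM in Ogye. For the helicases DDX60 and HELZ2, replicate 4 of Ogye at 5 weeks, at 119 and 13.5 CPM, was not raised. DDX60 ranged from 43.4 to 217 CPM in Cornish and 58.5 to 245 CPM in Ogye at 10 weeks. At 5 weeks DDX60 was at 45.4 to 689.6 CPM in Cornish and 69.9 to 654 CPM in Ogye. The RNA-editing enzyme ADAR had the narrowest range among effectors, from 27.3 to 31.2 CPM in Cornish and 26.7 to 32.5 CPM in Ogye at 10 weeks. At 5 weeks ADAR was at 28.3 to 58.3 CPM in Cornish and 30.02 to 86.3 CPM in Ogye.

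Among members that tune the response, USP18, which in mammals removes the ubiquitin-like ISG15 and holds back signalling at IFNAR2, was at 9.60, 2.60, 7.26, 5.02 and 6.32 CPM in Cornish and 18.8, 12.1, 9.75, 5.65 and 6.54 CPM in Ogye at 10 weeks. At 5 weeks it was at 71.3, 32.7, 22.3, 6.61 and 17.3 CPM in Cornish and 7.87, 8.34, 250.1, 31.2 and 215 CPM in Ogye. EPSTI1, an interferon-induced gene first described in epithelium next to stroma, was at 16.1, 7.57, 15.7, 10.8 and 16.7 CPM in Cornish and 22.49, 10.6, 14.8, 9.58 and 6.63 CPM in Ogye at 10 weeks. At 5 weeks EPSTI1 was at 80.7, 23.2, 17.4, 8.60 and 18.6 CPM in Cornish and 13.04, 18.2, 184, 26.8 and 139.6 CPM in Ogye. In both genes replicates 3 and 5 of Ogye and replicate 1 of Cornish at 5 weeks were the 3 highest libraries. NMI and IFI35, binding partners in mammals, were at 28.7 to 33.8 and 34.98 to 45.3 CPM in Cornish and 29.9 to 46.7 and 27.4 to 40.04 CPM in Ogye at 10 weeks. At 5 weeks they were at 27.2 to 103 and 34.2 to 118 CPM in Cornish and 30.5 to 251 and 36.5 to 373 CPM in Ogye.

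The ADP-ribosylation genes PARP12, PARP9 and DTX3L ranged over 32.6 to 56.96, 21.2 to 45.8 and 27.3 to 47.4 CPM in the 10 libraries of 10 weeks, and reached 191, 157 and 101 CPM at 5 weeks, each in replicate 3 or 5 of Ogye. PARP9 and DTX3L, partners in 1 complex in mammals, overlap by 208 bases on chromosome 7, and PARP9 overlaps FAIM by 3220 bases, so their rows may share reads. SOCS1, the feedback inhibitor of the receptor kinases, was at 3.002 to 16.03 CPM in Cornish and 6.17 to 24.04 CPM in Ogye at 10 weeks. At 5 weeks SOCS1 was at 8.90 to 18.00 CPM in Cornish and 6.50 to 62.03 CPM in Ogye, and its span shares 2689 bases with RMI2. The chemokine CCL19, a ligand of CCR7 that draws T cells and dendritic cells, was at 4.61, 3.90, 9.83, 3.95 and 4.97 CPM in Cornish and 10.99, 34.8, 15.3, 5.75 and 4.63 CPM in Ogye at 10 weeks. At 5 weeks CCL19 was at 27.1, 6.27, 9.71, 5.38 and 5.15 CPM in Cornish and 4.72, 8.12, 115, 10.7 and 60.7 CPM in Ogye. Replicate 2 of Ogye at 10 weeks, which was low for IFI6 and IFI27L2, had the third highest CCL19 level of the series.

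Age within Ogye gave the most calls. With all 20 libraries, 22 of the 32 members fell in 10-week against 5-week Ogye livers and 1, IFNAR1, rose (edgeR quasi-likelihood test, adjusted p under 0.05 over all tested genes), where 24.8% of all tested genes fell and 21.2% rose. The median log2 fold change of the members was -1.57, against -0.00435 over all tested genes. IFI6 had the largest change, -6.72 ± 1.32 (adjusted p = 0.00068), followed by RSAD2 at -6.23 ± 1.41 (adjusted p = 0.0019) and OASL at -6.04 ± 1.18 (adjusted p = 0.00065). IFIT5 was at -5.13 ± 1.14, MX1 at -4.26 ± 1.12, CMPK2 at -3.79 ± 0.86, DHX58 at -3.47 ± 0.70 and IFI27L2 at -3.42 ± 0.70, with adjusted p between 0.00079 and 0.005. USP18, LY6E, STAT2, EPSTI1, ZNFX1, IFI35 and IRF7 had log2 fold changes of -3.27 ± 0.84 to -2.36 ± 0.47 (adjusted p at most 0.0059). The remaining called members that fell were NMI, IRF1, IRF8, PARP9, PARP12, ADAR and IFNAR2, with log2 fold changes between -1.58 and -0.66 and adjusted p at most 0.032. IFNAR1 rose, with 0.65 ± 0.22 (adjusted p = 0.021).

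Few of these calls were made without the libraries that stood apart. In the fit without the 4 libraries, which leaves 2 Ogye libraries of 5 weeks and tested 10913 genes, 1 member fell in 10-week against 5-week Ogye, namely IRF8, and 2 rose, IFIH1 and EIF2AK2, where 9.32% of all tested genes fell and 7.16% rose. IRF8 was at -1.45 ± 0.33 (adjusted p = 0.002) with all libraries and -1.41 ± 0.37 (adjusted p = 0.019) without the 4, and its highest adjusted p over 30 alternatives was 0.0352. IFI6 was then at -0.74 ± 0.81 (adjusted p = 0.56), RSAD2 at -0.54 ± 0.48 (adjusted p = 0.46) and OASL at -0.30 ± 0.50 (adjusted p = 0.72). IFIH1 turned its direction, with -0.54 ± 0.45 (adjusted p = 0.33) in all libraries and 0.81 ± 0.17 (adjusted p = 0.0069) without the 4, and so did EIF2AK2, with -1.04 ± 0.49 (adjusted p = 0.089) and 0.76 ± 0.23 (adjusted p = 0.034). USP18 and NMI, which fell with all libraries, turned to positive values of 0.38 ± 0.55 and 0.15 ± 0.18 and were no longer called. DHX58, IRF7 and IRF8 were lower in every Ogye library of 10 weeks than in every one of 5 weeks, where 10.1% of all tested genes were lower and 9.81% higher without overlap and no member was higher.

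The comparison of breeds at 5 weeks depended on the same libraries. With all 20, 9 members were lower in Cornish and 0 higher, where 12.3% of all tested genes were lower and 6.75% higher, and the median member was at -1.16, against 0.00411 over all tested genes. RSAD2 was at -3.50 ± 1.22 (adjusted p = 0.049), IFI6 at -3.29 ± 1.12 (adjusted p = 0.047) and OASL at -3.21 ± 1.03 (adjusted p = 0.037). DHX58, IFI27L2, IFI35, STAT2 and IRF7 had values of -2.12 ± 0.64 to -1.49 ± 0.45 (adjusted p at most 0.038), and IFNAR2 was at -0.60 ± 0.16 (adjusted p = 0.016). For no member did the 5 libraries of 1 breed lie outside the range of the other at this age, which 3.70% of all tested genes did with Cornish lower and 3.15% with Cornish higher.

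Without the 4 libraries, edgeR called 0 members at 5 weeks in either direction, where 0.440% of all tested genes were called lower and 0.174% higher. At an unadjusted p under 0.05, 0 members were lower and 6 higher in Cornish, as were 859 and 657 of all 10913 tested genes. The median member then stood at 0.36. Among the members called with all libraries, IFI35, IRF7 and IFNAR2 kept a negative value. OASL was at 1.69 ± 0.56 (adjusted p = 0.19), IFI6 at 1.96 ± 0.94 (adjusted p = 0.37), IFIH1 at 0.67 ± 0.18 (adjusted p = 0.089) and USP18 at 1.28 ± 0.58 (adjusted p = 0.34), all positive where they had been negative. Calls also moved with single libraries, as 0 members were lower when replicate 5 of Ogye at 5 weeks was left out alone and 1 when replicate 3 was, where 5.13% and 5.87% of all tested genes were lower. Leaving out replicate 1 of Cornish at 5 weeks instead gave 14 members lower in Cornish, where 10.9% of all tested genes were.

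**Figure D3:**
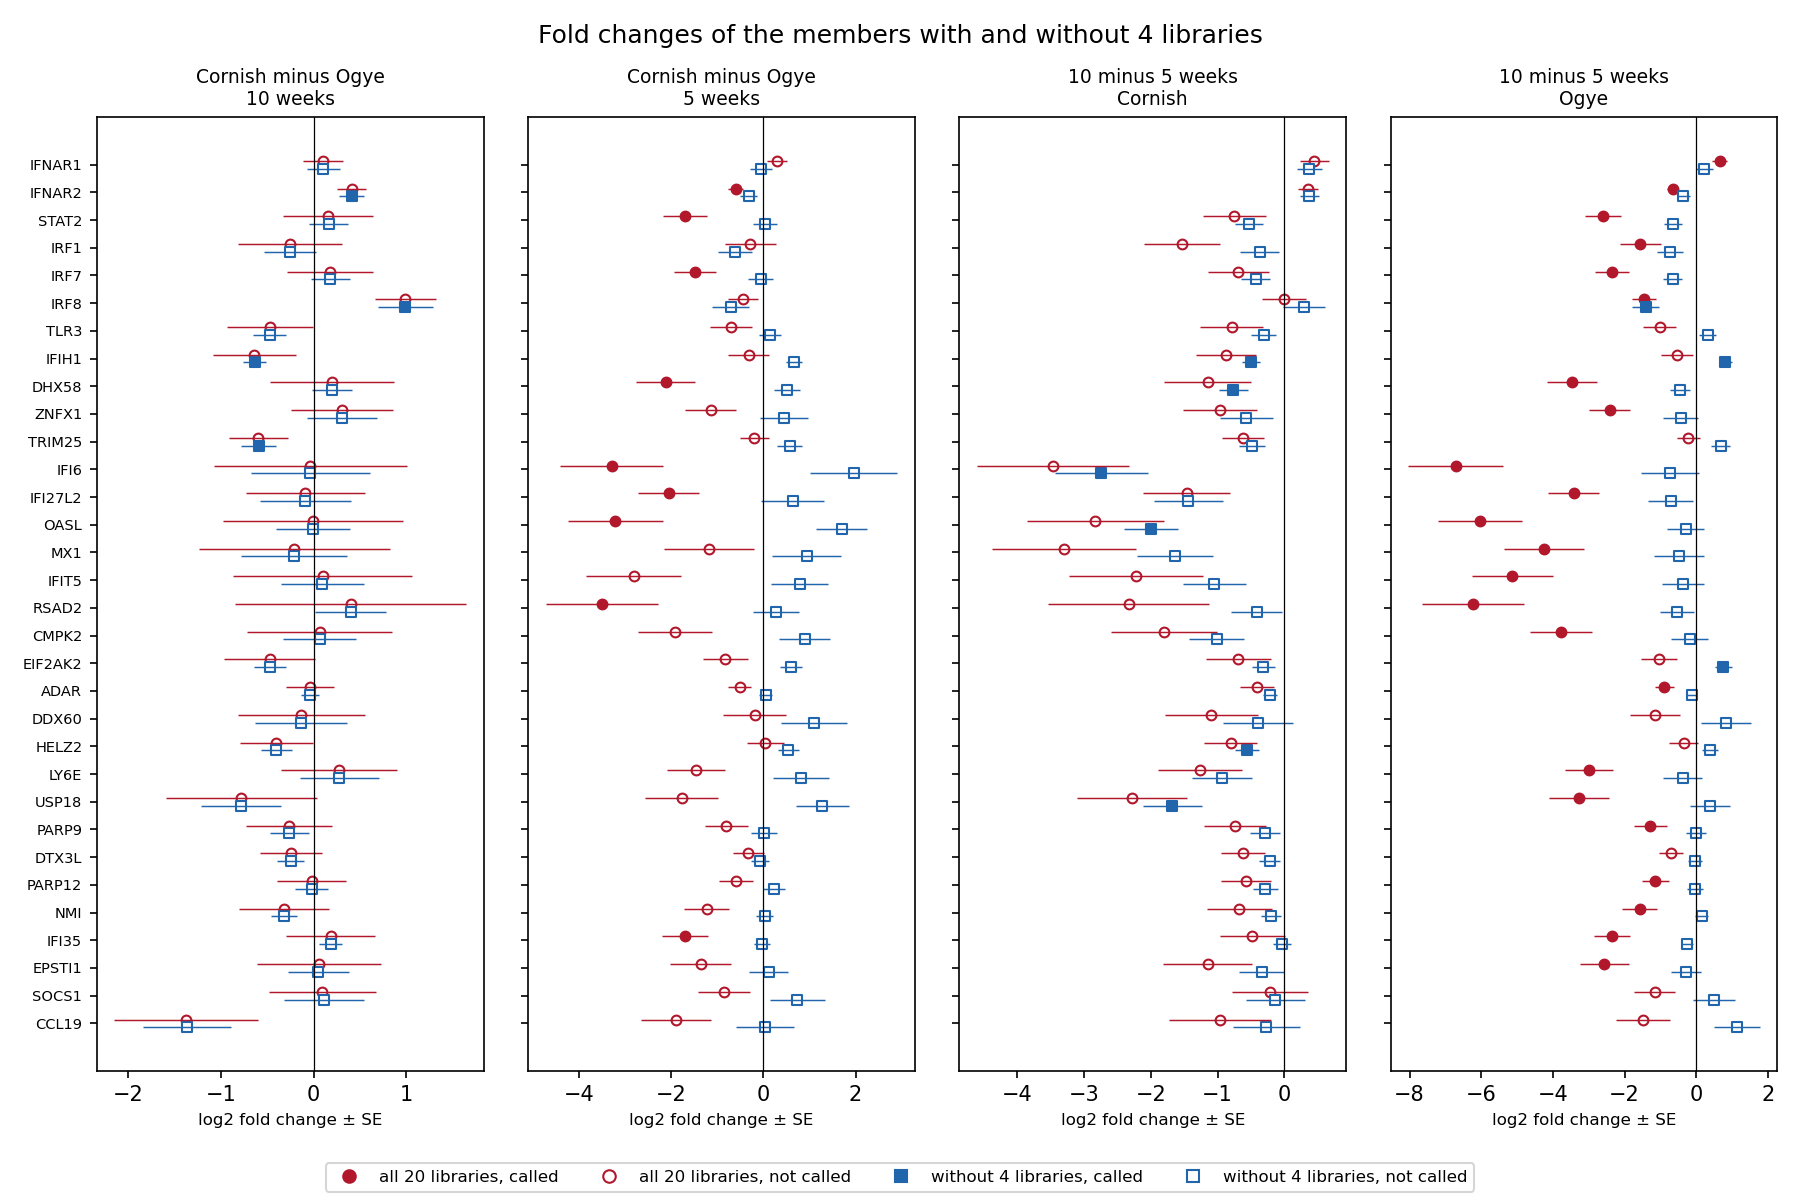
Log2 fold change with standard error of each member in 4 comparisons, from all 20 libraries (red circles) and without 4 libraries of 5 weeks (blue squares), filled where the adjusted p is under 0.05. At 10 weeks circles and squares nearly coincide, while in Ogye 10 minus 5 weeks IFI6 lies at -6.72 with all libraries and -0.74 without the 4.

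Within Cornish, members leaned towards lower levels at 10 weeks, and the calls depended on the libraries in the fit. With all 20 libraries 0 members were called by edgeR, where 3.29% of all tested genes were called lower and 4.07% higher at 10 weeks. DESeq2 called 5 lower, where it called 5.77% of all tested genes lower. At an unadjusted p under 0.05 in edgeR, 8 members were lower and 1 higher, as were 1497 and 1218 of all 10697 tested genes. Of the 32 members 30 had a negative log2 fold change, where 45.9% of all tested genes had a positive one. The median of the members was -0.836, against -0.039 over all tested genes. The members share libraries, so they are not separate observations. Replicate 4 of Cornish at 5 weeks did not share this lean, with its median member at -0.396 relative to the median library. The Cornish libraries of 10 weeks were at -0.553 to -0.0286 on that measure. Without the 4 libraries, IFI6, USP18, OASL, HELZ2, IFIH1 and DHX58 fell in 10-week against 5-week Cornish and no member rose, where 7.06% of all tested genes fell and 8.14% rose. IFI6 was at -2.74 ± 0.69 (adjusted p = 0.018) without the 4 libraries and -3.46 ± 1.14 (adjusted p = 0.065) with all, and OASL at -2.0 ± 0.41 (adjusted p = 0.0069) and -2.83 ± 1.02 (adjusted p = 0.089). USP18 was at -1.68 ± 0.44 (adjusted p = 0.021) without the 4 and -2.29 ± 0.82 (adjusted p = 0.089) with all. DHX58, HELZ2 and IFIH1 were at -0.77 ± 0.22, -0.56 ± 0.18 and -0.50 ± 0.13 without the 4, with adjusted p of 0.029, 0.044 and 0.021.

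The Cornish libraries of 10 weeks lay below all of 5 weeks for OASL and IFIH1, as 7.60% of all tested genes did, and above them for IFNAR1, as 8.74% did. With replicate 1 of Cornish at 5 weeks the only library left out, 0 members were called, where 162 of 10765 tested genes were lower and 247 higher, and IFI6 was at -2.72 ± 1.11 (adjusted p = 0.18). With only replicates 3, 4 and 5 of Ogye at 5 weeks left out, which belong to neither Cornish group but enter the shared estimate of the spread, 13 members fell, where 9.77% of all tested genes did.

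At 10 weeks few members were called between the breeds, in none of the fits given here a larger share than of all tested genes. With all 20 libraries 0 were called by edgeR, where 4.06% of all tested genes were called higher and 3.59% lower, and DESeq2 called 1, IRF8. At an unadjusted p under 0.05 in edgeR, 2 members were higher and 0 lower in Cornish, as were 1197 and 1268 of all 10697 tested genes. Without the 4 libraries, all of them from 5 weeks, IRF8 and IFNAR2 were higher and IFIH1 and TRIM25 lower in Cornish, where 10.2% of all tested genes were higher and 9.74% lower. IFIH1 was at -0.64 ± 0.13 (adjusted p = 0.0042) without the 4 and -0.64 ± 0.45 (adjusted p = 0.42) with all libraries. TRIM25 was at -0.59 ± 0.19 (adjusted p = 0.037) and -0.60 ± 0.32 (adjusted p = 0.27), IFNAR2 at 0.41 ± 0.14 (adjusted p = 0.044) and 0.41 ± 0.16 (adjusted p = 0.11), and IRF8 at 0.99 ± 0.30 (adjusted p = 0.032) and 0.99 ± 0.33 (adjusted p = 0.07). CCL19 and HELZ2, the next by p, were at -1.38 ± 0.77 (adjusted p = 0.3) and -0.40 ± 0.40 (adjusted p = 0.6) with all libraries, and CCL19 was at -0.75 without replicate 2 of Ogye at 10 weeks. IFIH1 and TRIM25 were lower in every Cornish library of 10 weeks than in every Ogye one, as 5.50% of all tested genes were, and no member was higher in that way, as 6.78% of tested genes were. The IRF8 value leaned on replicate 5 of Cornish, without which its log2 fold change was 0.59.

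Some markers of other cells differed between the breeds at 10 weeks as well. The 7 of 11 listed heterophil markers with a row summed to 32.3 to 139.7 CPM in Cornish and 477 to 1172 CPM in Ogye. LYG2 made up most of these sums. LYG2, CATH2, CATH3 and AvBD7 were lower in every Cornish library, and the other 3 overlapped. Of all tested genes, 5.50% were lower and 6.78% higher in every Cornish library of 10 weeks than in every Ogye one. The 9 of 10 macrophage markers summed to 1624 to 2169 CPM in Cornish and 1205 to 1721 CPM in Ogye, which overlap. Of these, C1QB and CTSS were higher in every Cornish library and 7 overlapped. The 10 of 11 T and NK markers summed to 63.9 to 81.8 CPM in Cornish and 84.9 to 110.8 CPM in Ogye. The sums of the T and NK markers did not overlap, but taken singly CD3D was lower in every Cornish library, LCK and CD28 were higher in every one, and the other 7 overlapped. No marker in the table was at 0 in all libraries, and the part of these cells in the values of IFIH1, TRIM25, IFNAR2 and IRF8 was not tested.

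The test of whether the breed difference itself changed with age called IFNAR2 and IRF8 as higher and no member as lower with all 20 libraries, where 13.3% of all tested genes were higher and 10.1% lower. IFNAR2 was at 1.01 ± 0.22 (adjusted p = 0.004) and at 0.73 ± 0.23 (adjusted p = 0.042) without the 4 libraries. This interaction was called in all 29 alternatives, whereas the difference of IFNAR2 at 10 weeks was not called with all libraries (adjusted p = 0.11), nor that at 5 weeks without the 4 (adjusted p = 0.46). IRF8 was at 1.44 ± 0.46 (adjusted p = 0.03) and 1.70 ± 0.50 (adjusted p = 0.034), and 5 of its 29 alternatives had an adjusted p of 0.05 or more. Without the 4 libraries 4 further members were called as lower, where 7.84% of all tested genes were higher and 5.68% lower. These were IFIH1 at -1.31 ± 0.22 (adjusted p = 0.0016), TRIM25 at -1.16 ± 0.32 (adjusted p = 0.027), EIF2AK2 at -1.07 ± 0.29 (adjusted p = 0.022) and HELZ2 at -0.95 ± 0.29 (adjusted p = 0.04). With all libraries they were at -0.33 ± 0.63, -0.40 ± 0.45, 0.35 ± 0.69 and -0.45 ± 0.56 and were not called. The interaction and the 4 pairwise comparisons share libraries, so their results are not separate observations.

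The 3 Ogye libraries with the span trend were not alike in the members. Replicate 4 shared the trend across all genes with replicates 3 and 5, and its median member was at 0.507, against 2.84 and 2.59. Members differed widely in replicate 4. IFI6, OASL, IFI27L2 and LY6E, with spans of 3.42, 2.03, 4.17 and 6.07 kb, stood 4.63, 3.12, 2.92 and 2.27 above the median library, while HELZ2, IFIH1 and DDX60, with spans of 22.6, 26.7 and 39.3 kb, were at -1.56, -0.87 and -0.06. In the same library SOCS1 and PARP9, of 2.69 and 8.48 kb, were at -0.22 and -0.13, and MX1, of 20.9 kb, was at 1.70. Across 31 members with a span the Spearman correlation of level and span was -0.460, -0.475 and -0.390 in replicates 3, 4 and 5 of Ogye at 5 weeks and -0.111 in replicate 1 of Cornish at 5 weeks, a description over genes of 1 library each. MX1 was at 5.30 and 5.34 in replicates 3 and 5. With the median of tested genes of similar span taken off each value, the median member was 2.31 and 2.09 above the median library in replicates 3 and 5. Of the 31 members, 27 and 25 were at least 1 above there, against 6.27% and 6.28% of all tested genes with a span. The median member was at 0.288 in replicate 4 and at 1.51 in replicate 1 of Cornish at 5 weeks. In replicate 4, 10 members were at least 1 above, against 6.68% of all tested genes with a span. There 2 members were at least 1 below, against 10.6%. The part of the span trend in these levels was not tested.

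**Figure D4:**
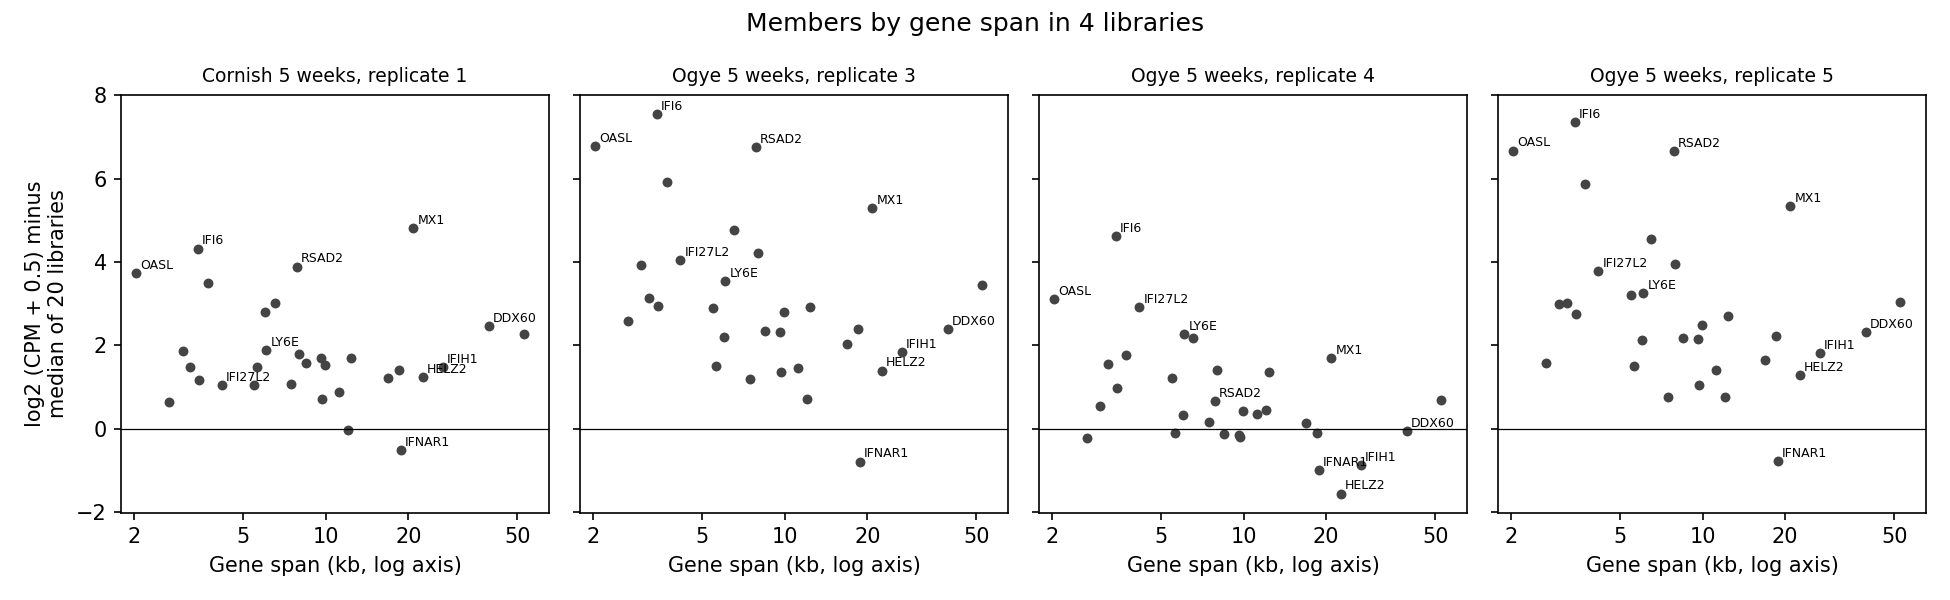
Level of 31 members relative to the median library (log2) against the span of the gene (kb, log axis) in replicate 1 of Cornish and replicates 3, 4 and 5 of Ogye, all at 5 weeks. In replicate 4 of Ogye the short genes IFI6 and OASL lie at 4.63 and 3.12 and the long genes HELZ2 and IFIH1 at -1.56 and -0.87, while in replicates 3 and 5 only IFNAR1 lies below 0.

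Some markers of other cells differed in replicate 1 of Cornish and in replicates 3, 4 and 5 of Ogye at 5 weeks. The median member was at 0.507 in replicate 4 of Ogye, against 2.84 and 2.59 in replicates 3 and 5. In replicate 1 of Cornish at 5 weeks the T and NK markers summed to 274 CPM, against 76.2 to 114.6 CPM in the other 4 of its group. GZMA, a granzyme of killer cells, was at 83.6 CPM there against 1.72 to 24.8 CPM in the other 19 libraries. Of the 10 markers, 7 were highest of the group in this library, CD28 was lowest, and CD4 and LCK lay among the others. Over the 20 libraries, replicate 1 of Cornish at 5 weeks held the highest level of 9.57% and the lowest of 4.79% of all tested genes. Of the 9 macrophage markers, C1QA, C1QB, C1QC, MARCO and MPEG1 were also highest of the group there, VSIG4 and LY86 were lowest, and 2 lay among the others. Of the 8 endothelial markers 7 were lowest of the group there, and of the 6 erythroid and thrombocyte markers 4 were, and none of either was highest. In replicates 3, 4 and 5 of Ogye at 5 weeks the macrophage markers summed to 2473, 2481 and 3858 CPM, against 1798 and 2153 CPM in replicates 1 and 2. Of the 9, C1QA, C1QB, C1QC, VSIG4, CTSS and MPEG1 were above both in all 3, CSF1R was below both, and MARCO and LY86 overlapped. The T and NK markers summed to 74.0, 120.2 and 174 CPM, inside the range of the other libraries. Erythroid and thrombocyte markers, 6 of 9 in the table, summed to 234, 253 and 272 CPM in these 3 libraries and to 103 and 145 CPM in replicates 1 and 2. The globins HBAD, HBA1 and HBBA were above in all 3, and the other 3 markers overlapped, in libraries depleted of globin RNA. Endothelial markers, 8 of 8, summed to 353, 304 and 442 CPM in the 3 and to 588 and 581 CPM in replicates 1 and 2, and B cell markers, 7 of 8, to 41.8, 204 and 45.0 CPM in the 3 and 58.7 and 25.7 CPM in replicates 1 and 2. Replicates 3, 4 and 5 of Ogye are the libraries in which levels went down with gene span, and the marker values were not adjusted for span. The share of all tested genes that separate as these markers did is not given, so their counts have no yardstick. Neither the part of the span trend in the marker values nor the part of these cells in the levels of the members was tested.

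Of 61 further genes of the pathway, 43 had a row and 36 were tested. In 10-week against 5-week Ogye 8 fell, IFITM5, IKBKE, IRF2, IRF5, MOV10, RNF213, TLR21 and TMEM173, and 7 rose, IFNGR2, JAK1, JAK2, PIAS1, STAT3, TLR7 and USP15, which is 22.2% and 19.4% of the 36, against 24.8% and 21.2% of all tested genes. Without the 4 libraries 3 fell and 4 rose in that comparison, 8.33% and 11.1%, against 9.32% and 7.16% of all tested genes. These shares are near those of all genes. JAK1, a kinase of the receptors, was at 345, 361, 253, 267 and 254 CPM in Cornish and 486, 511, 437, 379 and 490.0 CPM in Ogye at 10 weeks. At 5 weeks JAK1 was at 293, 199, 333, 303 and 286 CPM in Cornish and 218, 199, 93.4, 77.5 and 92.5 CPM in Ogye, so the 3 Ogye libraries with the span trend were the lowest of the series. In Cornish against Ogye, 0 pathway genes were higher and 1, IFNGR2, lower at 10 weeks, and 1, JAK1, was higher and 2, IFITM5 and SOCS3, lower at 5 weeks. With age in Cornish 1, SOCS3, rose and 1, IRF5, fell, and in the interaction 3, IFNGR2, JAK1 and TLR7, were lower. Each of these counts is at most 8.33% of the 36 and below the share of all tested genes called in the same direction.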

How the data were processed

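Liver total RNA was prepared with an RNeasy kit and sequenced from TruSeq stranded libraries, per the labels' protocols. The authors deposited raw counts, made with FastQC, MultiQC, STAR, the build GRCg7b and featureCounts, per the submitters' processing notes. Their versions and the strand setting were not found in the labels. The table has 54062 entries. A gene symbol is carried by 13956 of them, 40097 carry an assembler's name and 9 no name. Only named genes were used, so reads assigned to assembled entries are left out of levels and tests.

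Genes were kept by filterByExpr, which left 10697. Counts were scaled by TMM and fitted to 4 group means with the robust quasi-likelihood test of edgeR 4.0.16 in R 4.3.3. Tests were 2-sided, p-values were adjusted by Benjamini and Hochberg's method across the genes tested, and the threshold was 0.05. A log2 fold change is given ± its standard error. Levels relative to the median library use log2 of CPM plus 0.5. The scripts were tested on simulated counts. Positions and spans are those of RefSeq for GRCg7b, which listed 31 of the 32 members and not USP18. The spans of IRF7, IFI27L2 and CCL19 share 2645, 1461 and 745 bases with LOC121113257, LOC121107456 and LOC112530623. As with the partner of OASL, these have no row, so their reads may be counted for the members.

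Alternatives were DESeq2 1.42.0, limma-voom, other scaling, filters and entries, the compared groups alone, a replicate block, and leaving out libraries. Limma-voom (limma 3.58.1) was run with quality weights, which give each library its own weight. Levels with genes of similar span taken off were added after the data were seen. Same-numbered libraries did not deviate together (correlations of deviations -0.24 to 0.278, 7 of 30 over 0.1), so the numbers were not treated as pairs.

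The members, the pathway and marker lists and the libraries left out were chosen with earlier results of these data known. Values in every library are given for the 12 members with the widest range of log2 CPM and for IFNAR1, IFNAR2, IRF1, IRF7, STAT2, TLR3, DHX58 and IFIH1. Fold changes are given for members called with all 20 libraries or without the 4, with the lowest p added up to 6. Members named beyond this, such as USP18 at 5 weeks, were chosen after their values were seen.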

Additional observations from a re-analysis of the deposited data

Results flagged for a closer look

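In 21 of 76 sets of 5 libraries (19 members in each of 4 groups), the highest or lowest library lay far from the other 4, where chance alone marks about 1 in 20 sets. That rate is no yardstick here, since 12 of the 19 members were taken for their wide range and the sets share libraries. Replicate 1 of Cornish at 5 weeks stood above its group for 12 members, with OASL at 270.4 CPM, RSAD2 at 84.4 CPM, IFIT5 at 469 CPM, MX1 at 234 CPM, CMPK2 at 242 CPM, DHX58 at 23.2 CPM, CCL19 at 27.1 CPM, EPSTI1 at 80.7 CPM, IRF1 at 206 CPM, STAT2 at 23.5 CPM, TLR3 at 60.3 CPM and IFIH1 at 81.1 CPM. Replicate 1 of Ogye at 10 weeks stood above its group for 4 members, with OASL at 27.1 CPM, IFIT5 at 66.0 CPM, MX1 at 20.2 CPM and LY6E at 822 CPM. The other 5 were IFI6 at 6.92 CPM in replicate 2, CCL19 at 9.83 CPM in replicate 3 and IFIH1 at 24.1 CPM in replicate 1 of Cornish at 10 weeks, DHX58 at 3.02 CPM in replicate 2 of Ogye at 10 weeks, and IFNAR1 at 61.9 CPM in replicate 1 of Ogye at 5 weeks. Replicates 3 and 5 of Ogye at 5 weeks were high together, so neither was far from its nearest neighbour.

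The effect of breed differed with age for IRF8, by 1.44 on the log2 scale, and for IFNAR2, by 1.01 (edgeR quasi-likelihood test of the interaction, adjusted p = 0.03 and 0.004). In both the fitted difference of Cornish minus Ogye was positive at 10 weeks and negative at 5 weeks. IRF8 and IFNAR2 were the 2 of 32 members called higher, where 13.3% of all tested genes were. The call of IRF8 was lost in 5 of 29 alternatives.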

How the results depend on the processing

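Of 1554 alternative values for 52 named fold changes, 1316 kept direction and side of the threshold, 160 lost the call, 48 gained one and 30 changed sign, and the cause was not tested. Counts below are members called out of 32, with the percent of all tested genes called in brackets. The limma-voom fit also weights each library, so its counts differ from edgeR in method and in weights. In Cornish against Ogye at 10 weeks, with 0 higher and 0 lower, DESeq2 gave 1 higher (6.03%), limma-voom 2 and 1 (11.2% and 9.97%), the compared groups alone 2 lower (6.43%), leaving out the 3 Ogye libraries 1 and 1 (8.77% and 8.41%), and leaving out the 4 libraries 2 and 2 (10.2% and 9.74%). At 5 weeks, with 0 higher and 9 lower, limma-voom gave 1 and 28 (28.2% and 27.7%), the compared groups alone 0 lower (0.340%), and leaving out the 3 or the 4 libraries 0 lower (0.748% and 0.440%). With age in Cornish, with 0 and 0, DESeq2 gave 5 lower (5.77%), limma-voom 2 and 3 (13.6% and 13.004%), the compared groups alone 1 and 10 (11.998% and 10.3%), leaving out the 3 libraries 13 lower (9.77%) and leaving out the 4 gave 6 lower (7.06%). With age in Ogye, with 1 higher and 22 lower, the compared groups alone gave 0 higher (12.04%), leaving out the 3 libraries 0 and 1 (6.24% and 7.73%), and leaving out the 4 gave 2 and 1 (7.16% and 9.32%). For the interaction, with 2 higher and 0 lower, DESeq2 gave 7 higher (16.3%), limma-voom 22 higher (25.8%), leaving out the 3 libraries 1 and 4 (7.81% and 5.80%), and leaving out the 4 gave 4 lower (5.68%).

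Leaving out 1 library at a time, the counts ran from 0 to 1 higher (2.27% to 4.67%) in Cornish at 10 weeks, 0 to 1 higher (1.96% to 16.9%) and 0 to 18 lower (4.41% to 19.7%) at 5 weeks, 0 to 3 lower (1.27% to 4.54%) with age in Cornish, 0 to 1 higher (16.2% to 26.6%) and 18 to 27 lower (20.5% to 27.7%) with age in Ogye, and 1 to 10 higher (10.1% to 18.7%) in the interaction. At 5 weeks the 9 became 0 without replicate 5 and 1 without replicate 3 of Ogye, 5 without its replicate 4, 18 and 17 without its replicates 1 and 2, and 14, 2, 1, 2 and 2 without replicates 1 to 5 of Cornish. The interaction of IFIH1 then ran from -0.74 to 0.074 and that of EIF2AK2 from -0.14 to 0.76. The replicate block, on numbers that do not pair the libraries, gave 1 member lower at 5 weeks in place of 9 and moved no other count by over 1.5 times. In 6 of 30 comparisons of a library with the 5 of another group, the highest correlation was with the same number.

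Without the 3 Ogye libraries and, in brackets where it turned too, without the 4, the signs that turned at 5 weeks were those of STAT2 at 0.25 (0.032), IFI35 at 0.41, DHX58 at 0.89 (0.51), IRF7 at 0.21, OASL at 2.52 (1.69), IFI27L2 at 0.66 (0.64), IFI6 at 2.69 (1.96) and RSAD2 at 2.18 (0.28). With age in Ogye they were USP18 at 0.39 (0.38), NMI at 0.16 (0.15), PARP9 at 0.00036, EIF2AK2 at 0.77 (0.76) and IFIH1 at 0.82 (0.81). In the interaction EIF2AK2 was at -1.45 (-1.07) and, under limma-voom, TRIM25 at 0.14 and IFIH1 at 0.33. Without the 4 libraries Ogye at 5 weeks has 2 libraries, which limits every comparison that uses it. The search of promoters for interferon response motifs was not run, as no sequence was used here. Members without a row, unplaced reads and interferon genes with related copies limit what the table can show.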

Other observations

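Of 10 tested interferon-induced genes on the pathway list that are not members, 6 had their 3 highest levels in replicates 3 and 5 of Ogye and replicate 1 of Cornish at 5 weeks, as 21 of the 32 members and 1.85% of all tested genes had. These were ZC3HAV1, RNF213, CD274, MOV10, TRANK1 and TMEM173. The other 4 were IFITM5, PNPT1, NT5C3A and NLRC5, and NLRC5 was at 7.11, 5.16 and 9.22 CPM in replicates 3, 4 and 5 of Ogye at 5 weeks, against 14.6 and 19.6 CPM in replicates 1 and 2. RNF213, a large ubiquitin ligase, was at 53.9, 34.6, 47.2, 48.2 and 47.7 CPM in Cornish and 67.8, 29.4, 43.9, 44.99 and 44.9 CPM in Ogye at 10 weeks. At 5 weeks RNF213 was at 283, 102, 79.03, 56.1 and 99.2 CPM in Cornish and 53.5, 60.8, 391, 60.4 and 309.7 CPM in Ogye. CD274, the checkpoint ligand PD-L1, was at 4.99, 4.04, 6.95, 6.46 and 4.66 CPM in Cornish and 11.8, 16.4, 14.9, 4.24 and 4.18 CPM in Ogye at 10 weeks. At 5 weeks CD274 was at 33.7, 6.57, 5.61, 5.11 and 6.61 CPM in Cornish and 6.50, 10.51, 49.1, 7.27 and 33.8 CPM in Ogye. These 2 genes were not raised in replicate 4 of Ogye at 5 weeks. IFITM5 was at 101, 46.2, 83.03, 82.1 and 89.2 CPM in Cornish and 103, 96.3, 99.96, 79.7 and 72.3 CPM in Ogye at 10 weeks. At 5 weeks IFITM5 was at 186, 147, 94.7, 68.5 and 126 CPM in Cornish and 67.5, 68.5, 1261, 555 and 1063 CPM in Ogye, with replicates 3, 4 and 5 of Ogye all above the rest. The count of shared high libraries and the genes named here were chosen after their values were seen. SOCS3, a feedback inhibitor that answers mainly to cytokines acting through STAT3, was at 24.5, 5.84, 78.96, 21.4 and 31.5 CPM in Cornish and 17.9, 60.7, 29.6, 7.16 and 34.7 CPM in Ogye at 10 weeks. At 5 weeks SOCS3 was at 4.08, 5.42, 5.86, 10.4 and 4.78 CPM in Cornish and 18.9, 15.8, 53.4, 4.82 and 48.3 CPM in Ogye, and replicate 1 of Cornish at 5 weeks, though high for most members, had the lowest SOCS3 level of the series.

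Among the 16 libraries other than the 4 left out, 11 of the 32 members had their highest level in replicate 2 of Cornish at 5 weeks and 7 in replicate 1 of Ogye at 10 weeks, which hold the highest level of 5.12% and 5.58% of all tested genes. The remaining 14 were spread over 5 libraries.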
